A study of Drosophila melanogaster with 2 samples.

Results

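The genes cbt, on chromosome arm 2L, and Lk6, on 3R, held some of the strongest ranked ChIP-seq peaks of the CkIIalpha-i1 fusion protein, and these peaks were missing from the authors' thresholded peak lists. The 2 genes were chosen by their signal values and by this listing, out of 13945 protein-coding genes on the 6 main arms, so their signals, ranks and listings are given as a description with no test. All ranked peaks with at least 1 bp in the gene body or within 5 kb of it were collected from all 8 deposited lists. In the conservative ranked list, which pairs the replicates, these were 17 peaks at cbt and 30 at Lk6, of 139481 in all. Of these, 5 at cbt and 1 at Lk6 passed a global irreproducible discovery rate (IDR, which is low where a peak keeps its rank in a second list) of 0.01, as did 706 of all 139481 ranked peaks (0.506%).

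Whole Drosophila melanogaster embryos aged 0 to 18 hours, of 1 strain in which CkIIalpha-i1 is fused to enhanced green fluorescent protein, made up the single group, with 2 biological replicates and with an antibody against the tag used for the immunoprecipitation. Each sample mixed all embryonic tissues over that whole range of ages, so no peak can be assigned to a cell type or stage, and what is mapped is the tagged protein. No other genotype was analysed here, and no untagged or input library. Whether the peaks depend on the tagged protein was therefore not tested.

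The product of cbt, cabut, is a C2H2 zinc finger transcription factor related to the mammalian TGF-beta inducible early genes of the Krüppel-like family. In flies it is known from dorsal closure of the embryo, downstream of the Jun kinase pathway, and from the response to dietary sugar, where the Mondo-Mlx factors act on it. Lk6 is the fly relative of the mammalian MAPK-interacting kinases, which bind ERK and p38 kinases and phosphorylate the cap-binding protein eIF4E. CkIIalpha-i1 takes its name from an interaction with casein kinase II alpha, the catalytic subunit of a broadly acting serine/threonine kinase.

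The sequences of the leading peak of each gene are shown because most of the values below concern them. Both are given on the plus strand of dm6, while both genes run on the minus strand. Capitals mark matches to the words searched for in the motif paragraph: TTTATA (the reverse complement of TATAAA) in the cbt peak, at chr2L:480992-481192, and ACAGTGG and GAGAG in the Lk6 peak, at chr3R:11760962-11761129.
cbt leading peak: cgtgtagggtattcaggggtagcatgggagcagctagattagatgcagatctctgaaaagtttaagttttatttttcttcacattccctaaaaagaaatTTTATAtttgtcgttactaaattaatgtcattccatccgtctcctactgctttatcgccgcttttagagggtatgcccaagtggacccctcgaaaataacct
Lk6 leading peak: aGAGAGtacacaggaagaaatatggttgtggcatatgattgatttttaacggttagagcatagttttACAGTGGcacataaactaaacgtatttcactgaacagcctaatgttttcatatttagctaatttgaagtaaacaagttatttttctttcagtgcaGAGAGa

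The gene cbt (FBgn0043364, 2L 476446 to 479688, minus strand) is 3243 bp long, and its 3 annotated transcripts share 1 start site. It lies wholly inside ush, which runs from 476220 to 540560 on the plus strand and encodes u-shaped, a FOG-family cofactor of GATA factors. The window of 5 kb on each side also reached MED15, a gene of a Mediator subunit, and CG4297. Distances are from the summit to the start site, with negative values upstream. Every cbt peak past the threshold except 1 lay upstream of cbt inside an intron of ush, so the peaks cannot be assigned to cbt or to ush by position.

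The leading cbt peak stood at chr2L:480992-481192, with its summit at 481104, 1416 bp upstream of the cbt start site. Its signal value, the peak caller's own score with no stated scale, was 559.9 in the conservative ranked list, where it ranked 2 of 139481 by signal. In the replicates' own ranked lists the signal was 244.6 in replicate 1 (rank 3) and 321.1 in replicate 2 (rank 5), a mean of 282.8 ± 54.1 (SD, n = 2) if both were scored on 1 scale. The site was thus among the highest in either replicate, and the summits of the replicates lay 10 bp apart. The peak was 201 bp wide in the conservative list, 153 bp in replicate 1 and 190 bp in replicate 2, against full widths of 284, 260 and 270 bp. Of 681 main-arm peaks past the threshold, 76 (11.2%) were narrower than full width, among them all 7 peaks nearest in signal to the leading cbt and Lk6 peaks (164 to 226 bp). The −log10 of the global IDR was 5, the highest value written in the lists, in all 4 ranked lists.

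The second strongest cbt peak lay at the promoter, at chr2L:479936-480219, with its summit 390 bp upstream of the start site. Its signal was 117.8 in the conservative list (rank 220), 48.3 in replicate 1 (rank 321) and 62.9 in replicate 2 (rank 244). It passed the threshold in all 4 ranked lists. The leading peak's signal was 4.75 times this one in the conservative list, 4.42 times the next strongest of the window in replicate 1 and 5.10 times in replicate 2. The distance between the leading peak and the rest of the window was thus of like size in both replicates.

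The other 2 upstream peaks were weaker, and each lay close to the threshold in at least 1 replicate. The peak at chr2L:481832-482115, 2286 bp upstream, had a signal of 90.2 in the conservative list (rank 373), 44.3 in replicate 1 (rank 392) and 48.6 in replicate 2 (rank 427). In replicate 1 it stood just outside the threshold, at an IDR of 0.0104, and in replicate 2 it was well inside, with a −log10 of 2.76. The peak at chr2L:480521-480804, 975 bp upstream, had 40.8 in the conservative list (rank 4437), 34.9 in replicate 1 (rank 861) and 30.3 in replicate 2 (rank 1257). It was the member just inside the threshold, with an IDR of 0.00733 in the conservative list and 0.00981 in replicate 2, and it did not pass in replicate 1. With the promoter peak and the leading peak, these formed a run of 4 peaks over 2180 bp. The letters of the 3 weaker peaks of this run are shown, on the plus strand, because they carry the E-box, AP-1 and GAGA words described below. Capitals mark CACGTG (E-box), TGAGTCA (AP-1) and GAGAG or its reverse complement CTCTC, for GAGA factor.
cbt, 390 bp upstream: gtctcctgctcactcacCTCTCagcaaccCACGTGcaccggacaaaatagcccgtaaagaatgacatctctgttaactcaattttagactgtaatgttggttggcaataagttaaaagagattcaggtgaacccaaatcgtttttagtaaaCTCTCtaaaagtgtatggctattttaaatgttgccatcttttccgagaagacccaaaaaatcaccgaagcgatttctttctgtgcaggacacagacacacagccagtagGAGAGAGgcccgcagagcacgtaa
cbt, 975 bp upstream: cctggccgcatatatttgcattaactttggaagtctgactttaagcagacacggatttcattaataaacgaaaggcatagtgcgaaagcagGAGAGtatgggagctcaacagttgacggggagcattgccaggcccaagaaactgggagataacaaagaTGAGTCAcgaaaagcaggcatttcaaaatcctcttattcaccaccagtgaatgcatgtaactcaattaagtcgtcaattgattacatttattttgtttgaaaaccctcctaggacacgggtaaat
cbt, 2286 bp upstream: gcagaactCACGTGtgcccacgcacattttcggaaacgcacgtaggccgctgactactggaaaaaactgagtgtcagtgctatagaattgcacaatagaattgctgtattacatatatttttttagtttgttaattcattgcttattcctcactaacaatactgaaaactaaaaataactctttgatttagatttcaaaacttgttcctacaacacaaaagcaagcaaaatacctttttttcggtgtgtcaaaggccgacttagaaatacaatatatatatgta

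The last of the 5 peaks, at chr2L:472308-472591, lay on the far side of cbt, beyond MED15. Its summit was 250 bp upstream of the nearest start site, that of CG4297, and 7238 bp downstream of the cbt start site. Its signal was 115.1 in the conservative list (rank 226), 55.4 in replicate 1 (rank 239) and 55.8 in replicate 2 (rank 319), and it passed in all 4 ranked lists. The replicates' signals thus differed least here among the 5 peaks, by −0.01 on the log2 scale (replicate 1 over replicate 2), against −0.39 at the leading peak. This peak belongs to cbt only by the width of the window: within 2 kb of the gene body 3 peaks past the threshold were left.

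Candidates below the threshold filled the rest of the cbt window. In the conservative list 12 did not pass, with signals of 5.11 to 50.9 and a median of 18.1. The strongest of these, at chr2L:471641-471924 in the 5′ UTR of CG4297, was the member just outside the threshold, with an IDR of 0.148. Its signal of 50.9 was above the 40.8 of the weakest peak that passed, so the order by signal and the order by IDR differed. Within the cbt body itself the conservative list held 2 summits, neither past the threshold. One, of signal 34.7, lay in the 5′ UTR 1315 bp downstream of the start site, and the other, of 22.2, in a coding exon 2031 bp downstream. At the cbt start site a candidate was listed in replicate 1 (29.6, 88 bp downstream) and in the pooled list (28.9), and none in the conservative list or in replicate 2.

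**Figure D1:**
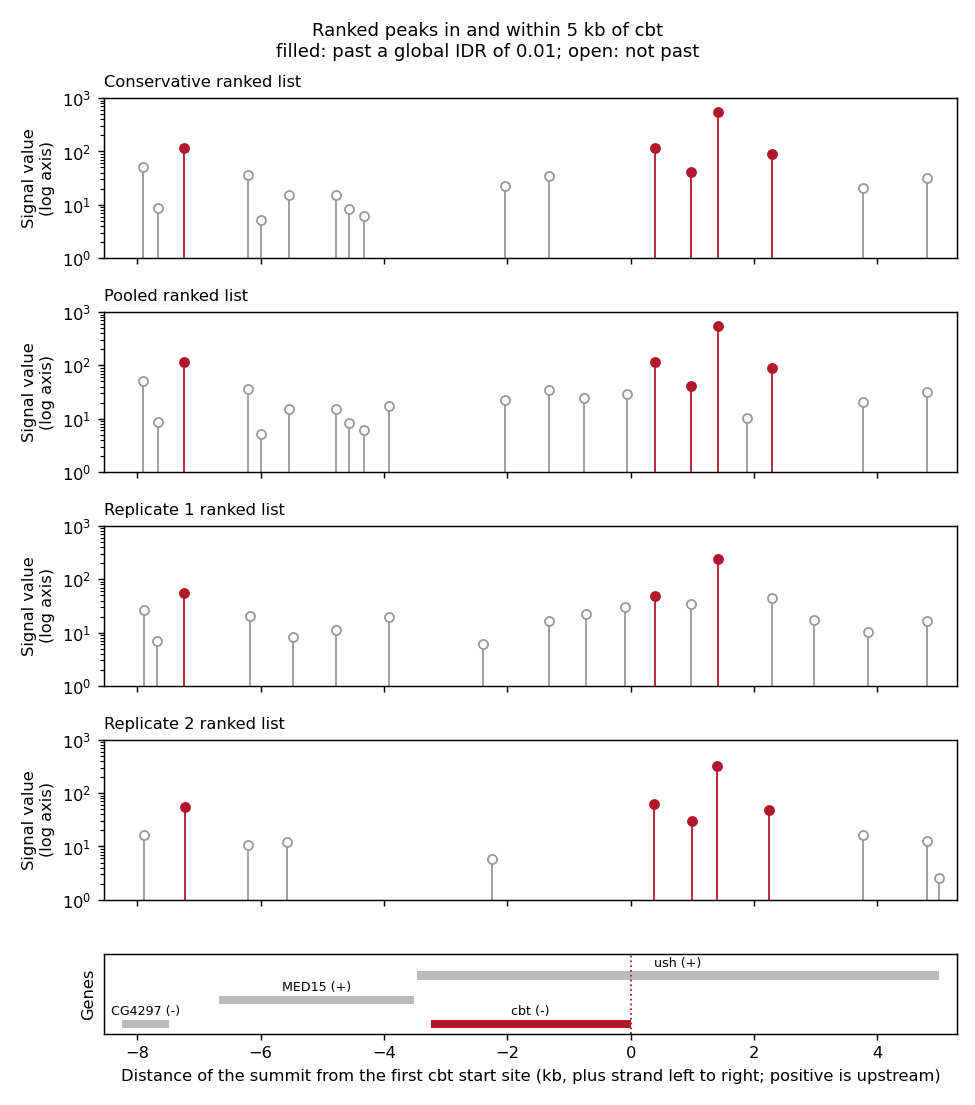
Signal value (log axis) of every ranked peak in the cbt window against the distance of its summit from the cbt start site in kb, for the 4 ranked lists, with the genes of the window drawn below; filled points passed a global IDR of 0.01. The leading peak, 1416 bp upstream, is the highest point in all 4 lists, from 244.6 in replicate 1 to 559.9 in the conservative and pooled lists.

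The plot of the cbt window shows the same 4-peak run upstream of the gene in all 4 lists. All 4 peaks of the run passed in the conservative list, the pooled list and replicate 2, and 2 of the 4 passed in replicate 1. In all, 5 of 17 ranked peaks passed in the conservative list, 5 of 21 in the pooled list, 3 of 18 in replicate 1 and 5 of 12 in replicate 2. Over all ranked peaks the shares past the threshold were 0.506% in the conservative list, 0.688% in the pooled list, 0.409% in replicate 1 and 0.585% in replicate 2, and nothing is read from the difference, since the gene was chosen on these values. The density of ranked peaks was 1.28 per kb at cbt in the conservative list, against 1.02 per kb over the main arms.

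Lk6 (FBgn0017581, 3R 11750931 to 11764457, minus strand) is 13527 bp long and has 2 annotated start sites, at 11764457 for the transcript Lk6-RA and at 11760079 for Lk6-RB. Its only peak past the threshold stood at chr3R:11760962-11761129, with its summit at 11761035. That is in an intron of Lk6-RA, 3422 bp downstream of the first start site and 956 bp upstream of the internal one. The signal was 386.9 in the conservative list, where it ranked 12, and it was 210.9 in replicate 1 (rank 9) and 176.2 in replicate 2 (rank 29). The mean of the replicates was 193.5 ± 24.5 (SD, n = 2), with replicate 1 the higher, by 0.26 on the log2 scale. At the leading cbt peak the order was the other way, with replicate 2 the higher.

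The Lk6 peak stood apart in signal from the rest of its window. It was 168 bp wide in the conservative list, 147 bp in replicate 1 and 137 bp in replicate 2, a width like that of the 4 peaks nearest to it in signal (164 to 179 bp). The summits of the replicates fell on the same base. Its signal was 9.56 times that of the next peak of the window in the conservative list, 7.21 times in replicate 1 and 8.07 times in replicate 2. The −log10 of the global IDR was 4.38 in the conservative list and 5 in the other 3 ranked lists. The other 29 candidates of the conservative list had signals of 4.41 to 40.5, with a median of 19.3, and the one just outside the threshold had an IDR of 0.342 (chr3R:11758253-11758536, signal 34.6, in an intron). No gap of this kind was seen at cbt, where the threshold fell among peaks of similar signal.

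The start sites of Lk6 carried only weak candidates. At the first, a candidate 97 bp downstream had a signal of 37.5 in the conservative list (rank 6953), and its counterpart in replicate 1 had 24.3. The nearest candidate to the internal start site in the conservative list lay 602 bp downstream of it, with a signal of 22.4. In the gene body 15 summits were listed, of which 1 passed, and the strongest of the others (40.5) lay in a coding exon. The window also reached l(3)neo38, CG6923 and CG43062, and none of the candidates in those genes passed in any ranked list. Ranked peaks numbered 1.28 per kb at Lk6 in the conservative list, against 1.02 per kb over the main arms; in replicate 2 they numbered 0.723 per kb, against 0.799.

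**Figure D2:**
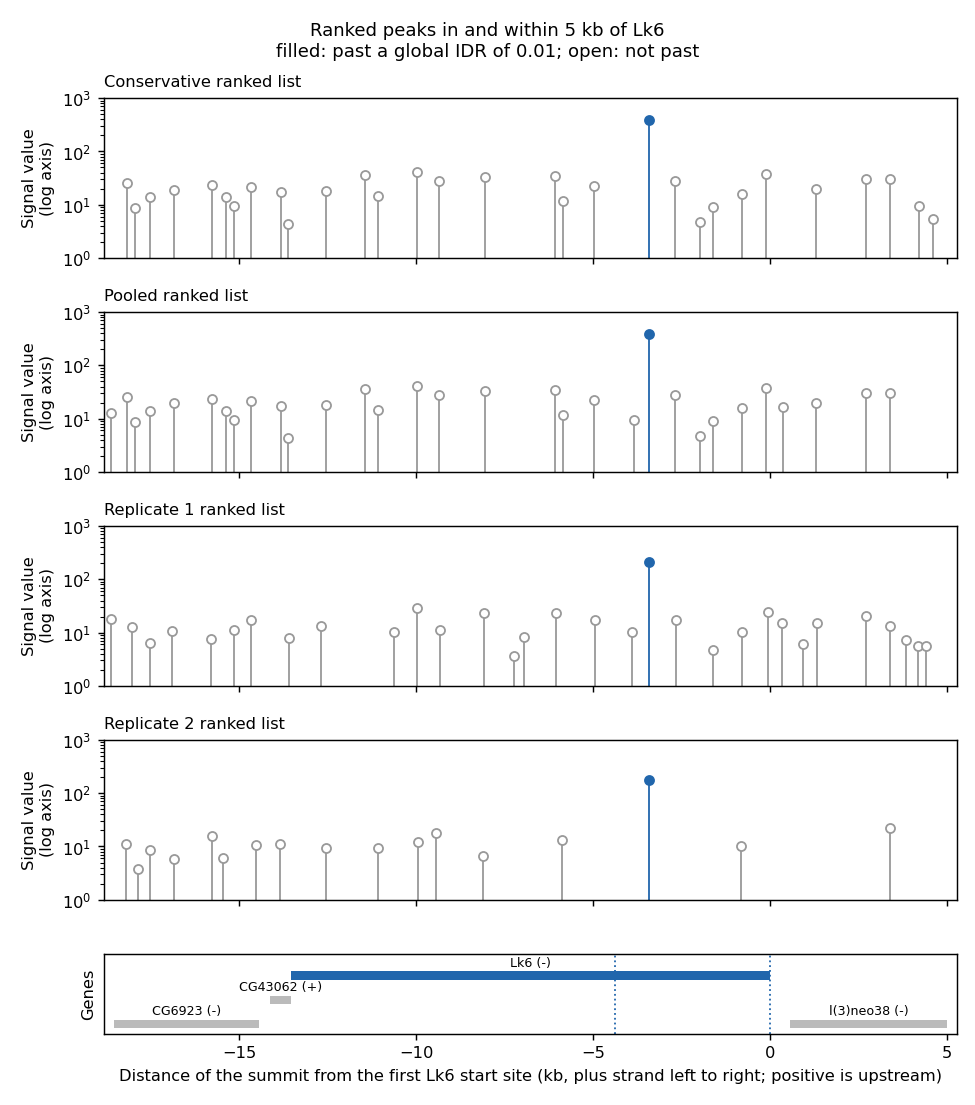
Signal value (log axis) of every ranked peak in the Lk6 window against the distance of its summit from the first Lk6 start site in kb, for the 4 ranked lists, with the genes of the window drawn below and both start sites dotted; filled points passed a global IDR of 0.01. In each list 1 peak passed, with a signal of 386.9 in the conservative and pooled lists, 210.9 in replicate 1 and 176.2 in replicate 2, and the next highest point in any list has 40.5.

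As the plot of the Lk6 window shows, the single peak recurred at the same place in every list, while the weak candidates around it were fewer in replicate 2 (16 not past the threshold) than in replicate 1 (30). The pooled and conservative lists gave equal signals for all 124486 peaks they shared, so they are not independent values. Each ranked list also gave a signal for both of its inputs. In the pooled list these were 274.1 and 296.8 for the leading cbt peak and 224.1 and 170.9 for the Lk6 peak. In replicate 1's own list they were 127.7 and 124.9 for cbt and 127.7 and 84.0 for Lk6, and in replicate 2's they were 151.4 and 176.3 for cbt and 94.5 and 84.6 for Lk6. Every candidate listed in the windows, past the threshold or not, had a signal for both inputs. Having both is thus not particular to these peaks. The make-up of these inputs is not stated in the labels or file records.

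**Figure D3:**
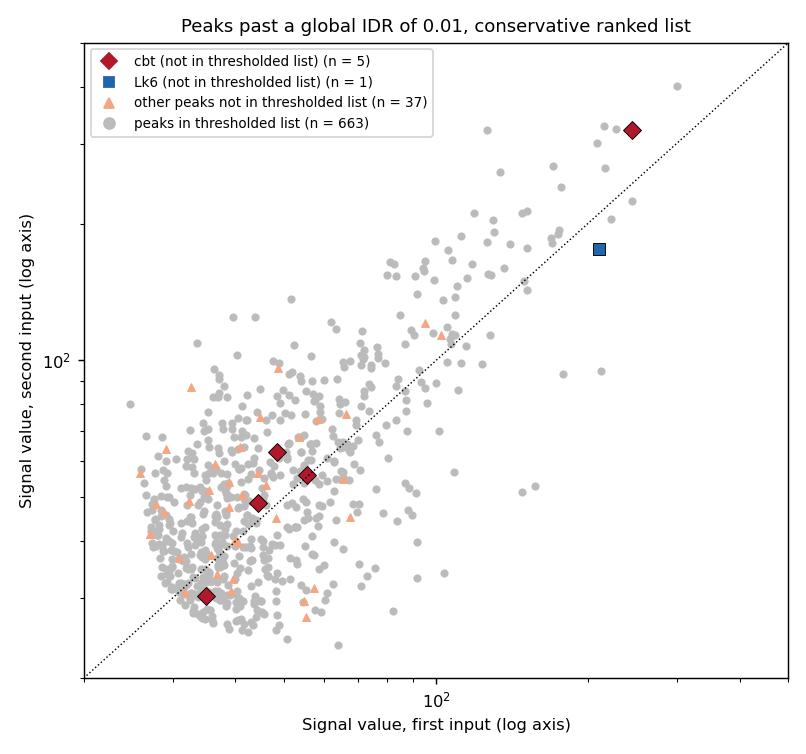
Signal value in the first against the second input of the conservative ranked list (both log axes) for the 706 peaks past a global IDR of 0.01; the dotted line marks equal signals. The leading cbt peak (244.6 and 321.1) and the Lk6 peak (210.9 and 176.2) sit in the upper right among the strongest peaks of the thresholded list, on either side of the line.

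The 2 inputs of the conservative list carried the replicates' signals: all 706 first-input signals of its peaks past the threshold occurred in replicate 1's list, and 698 of the second-input signals in replicate 2's. Over these 706 peaks the log2 ratio of the first to the second input had a median of −0.19, with quartiles of −0.54 and 0.19. At −0.39, the leading cbt peak lay inside that middle range, and the Lk6 peak, at 0.26, lay above it. The full range was −1.70 to 1.60. The plot of the input signals shows both peaks within the cloud of the others.

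None of these 6 peaks was in a thresholded list. No thresholded peak of any of the 4 lists touched either window, although each of the 4 thresholded lists held only peaks past the same IDR of 0.01 in its ranked list, at identical positions. In the conservative list 706 ranked peaks passed and 663 were held in the thresholded list, so that 43 were missing (6.09%). On the main arms 28 of 681 were missing (4.11%), and the other 15 lay on other contigs. The missing peaks had a median signal of 85.0, against 92.0 for the held ones. In the pooled list 68 of 1012 were missing, in replicate 1 28 of 455, and in replicate 2 68 of 637. Of the 43, 39 were also missing in the pooled list, 34 in replicate 2, 21 in replicate 1 and 15 in all 4, where a peak that does not pass in a list cannot be missing from it. None of the 43 overlapped a thresholded peak of any list. Per the sample file records, each thresholded list was derived from 1 more input file than its ranked list. What that file holds is not given in the sources used here, and its part in the missing peaks was not tested.

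**Figure D4:**
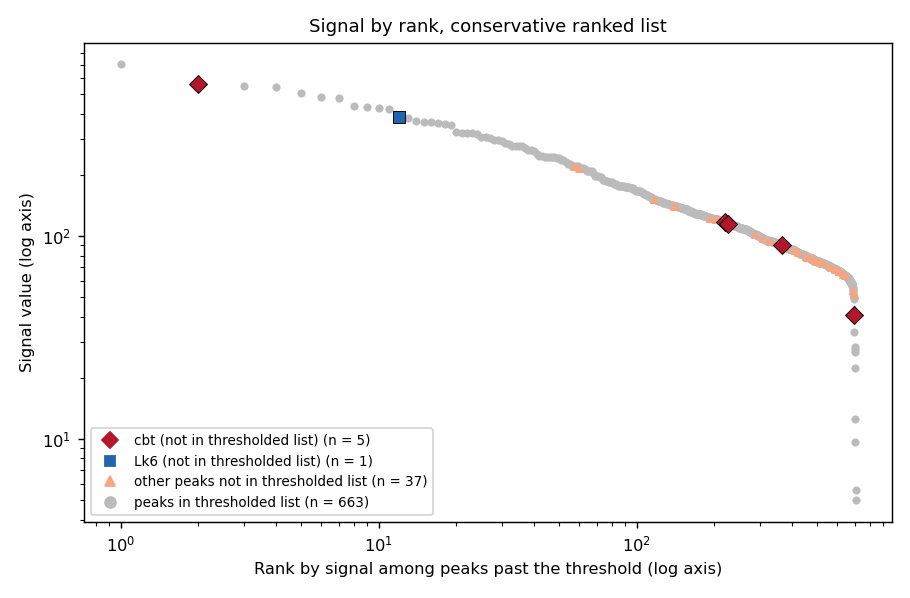
Signal value against rank by signal (both log axes) for the 706 peaks past a global IDR of 0.01 in the conservative ranked list, with missing and held peaks marked. The leading cbt peak (rank 2) and the Lk6 peak (rank 12) stand above all other missing peaks, the next of which has a signal of 221.5.

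The plot of signal by rank spreads the 6 member peaks over the whole order. Those at rank 2 and rank 12 were the 2 missing peaks of highest signal, 3 cbt peaks stood at ranks 219, 225 and 365 of the 706 that passed, and the cbt peak 975 bp upstream, at 40.8, stood at 697. The next missing peaks on the main arms lay at larp, a La-related RNA-binding protein gene (221.5, 340 bp upstream of its start site, 71 bp wide), and in an intron of trx, the trithorax histone methyltransferase gene (216.7). Those at lncRNA:CR45643 (140.9), in an intron of tara (140.6), 250 bp upstream of CG6966 (114.0) and 129 bp upstream of Nuak (102.1) followed, along with peaks in an FB-NOF element inside nmo (123.0) and in R1-type elements (120.9, 120.9 and 113.4). Annotated transposable elements held 10 of the 28 missing main-arm peaks, against 2 of 653 held ones. The 6 cbt and Lk6 peaks were among the other 18. The share of bases masked as repeats in the reference was 23.4% in the leading cbt peak and 22.6% in the Lk6 peak, where missing peaks had a median of 22.8% and held ones of 18.7%.

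Missing peaks mostly stood alone. Joined within 5 kb, the 28 on the main arms formed 21 places, of which 17 held 1 peak and 2 held 2. The run of 4 upstream of cbt held the most, and 1 other place held 3. Counted by gene window, 1568 of 13945 protein-coding genes (11.2%) had at least 1 peak past the threshold, 21 (0.151%) had at least 1 missing peak, and 2 (0.0143%) had 5 or more past it. Those 2 were cbt and ush, which share the same 5 peaks. The genes chosen on these values were cbt and Lk6, so nothing is read from the comparison.

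Both genes lay in stretches with no thresholded peak, whose length depended on the list. Distances at cbt are from the outermost of its peaks past the threshold, the one near CG4297 included. In the conservative thresholded list the peaks on either side lay 204.5 kb away, at CG17075, and 359.6 kb away, at drongo, a stretch of 574.0 kb. On either side of the Lk6 peak they lay 104.0 kb away, at CG42327, and 360.1 kb away, at CG4702, a stretch of 464.3 kb. Gaps between neighbouring peaks of that list had a median of 96.2 kb, with quartiles of 24.6 and 243.8 kb, and 37 of 648 were at least as long as the cbt stretch and 61 as the Lk6 stretch. In the pooled list and in replicate 2 the Lk6 stretch was shorter, at 225.6 and 224.3 kb, because both held a peak at CG6962, 121.4 kb away. The replicate 2 value lay inside the quartiles of that list's gaps (34.2 and 331.6 kb). The pooled value lay above the quartiles of the pooled list's gaps (18.1 and 170.7 kb). In replicate 1 the Lk6 stretch was 464.3 kb, also above the quartiles of that list's gaps (46.8 and 385.8 kb). The cbt stretch was 598.1 kb in replicate 2. The pooled and replicate 1 thresholded lists did hold a peak closer to cbt, in an intron of ush 6185 bp upstream of the cbt start site and just outside the window (chr2L:485731-486014). Its signal was 66.7 in the pooled list, with an IDR of 0.00879, and 47.2 in replicate 1, with an IDR of 0.00332. In the conservative list the same peak had rank 705 and an IDR of 0.644, and replicate 2 listed no candidate there. A peak of lower signal and higher IDR than the leading cbt peak was thus held in those 2 lists.

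By signal, the peaks most like the members belonged to the thresholded list. Ranked directly above the leading cbt peak was that of Ugalt, a UDP-galactose transporter gene (700.6), and below it were those of CG14100 (547.1) and mRpL41, a mitochondrial ribosomal protein gene (541.2). Above the Lk6 peak were those at asRNA:CR45928 (426.5) and PNPase, the mitochondrial polynucleotide phosphorylase gene (422.6), and below it those in an intron of Adf1, a transcription factor gene (381.1), and upstream of CenG1A (367.9). All 7 were held. The members differed from most of these in place: the 2 leading peaks lay 1416 and 956 bp from the nearest start site, whereas 6 of the 7 lay within 139 bp of one and the Adf1 peak 772 bp. Of the 681 main-arm peaks past the threshold, 311 (45.7%) lay over 500 bp from any start site. The leading cbt peak had the highest signal of these 311. A peak with CG11050 as its nearest gene was next (476.7), and the Lk6 peak came after that.

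Most genes listed as acting in the pathways of cabut or Lk6 carried no peak past the threshold. The lists below were drawn up with earlier results of these data known, and a gene counts when a conservative peak past the threshold touches its body or the 5 kb around it, so a longer gene has a wider window. Over all lists, leaving out cbt and Lk6, 15 of 77 genes (19.5%) had such a peak, against 11.2% of all protein-coding genes, and 1 had a missing one. Nothing particular to the lists is read from these counts.

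For cbt, 1 of 7 other Krüppel-like and Sp genes had a peak: dar1, a factor of dendrite growth, with an intronic peak of 90.1. In the Jun kinase and dorsal closure list 3 of 21 did. These were the kinase gene msn (intronic, 94.1), aop, an ETS repressor gene with 2 peaks (91.4 the higher), and puc, the phosphatase gene that feeds back on the Jun kinase bsk. The puc peak, of 62.4, had CG7878 as its nearest gene. None of 10 sugar-sensing genes, including Mondo, bigmax and sug, had a peak past the threshold. Among immediate early genes 3 of 7 did, namely Atf3 (2 peaks, 221.5 the higher), sr (85.6) and puc. The peaks named here were held in the thresholded list.

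For Lk6, 5 of 13 genes of the ERK and p38 cascades had a peak. Raf, the kinase that starts the ERK cascade, had 3, with 215.8 the highest, in an intron. The p38 kinase genes p38a and p38c shared 1 peak of 143.7, the adaptor gene drk had 108.1 and the ERK phosphatase gene Mkp3 had 80.1. The drk peak lay in an intron of drk, 2510 bp downstream of its start site, with mars as its nearest gene. Of 14 genes of cap binding and its control, 2 had a peak. The gene larp had 2 peaks, of which 1 was missing, that of 221.5 given above. The other was eIF4EHP, the gene of a cap-binding translational repressor, with 2 peaks, 158.3 the higher. The eIF4EHP peak of 158.3 lay 303 bp upstream of its start site, with CG18428 as its nearest gene, 73 bp away. The other 12 genes of this list had none past the threshold, among them eIF4E1, the main cap-binding protein gene. In the TOR pathway 2 of 8 genes did, foxo (160.8) and Rheb (33.7, inside CRMP), and Tor was not matched to the annotation.

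The sequence around the leading summits was searched for 13 words, on both strands and up to 100 bp from the summit, as were all main-arm peaks of the list. They were DRE (TATCGATA), M1BP (GGTCACACT), the GAGA word GAGAG, the TATA word TATAAA, the 7-mers ACAGTGG and CAGTGTA, AP-1 (TGANTCA), CRE (TGACGTCA), E-box (CACGTG), KLF (CACCC), Zelda (CAGGTAG), and the composite ChoRE and heat shock elements. ChoRE contains E-box-like ends and may overlap it. A match is a description of letters and not of a bound site. The leading cbt peak held 1 match: TATAAA on the minus strand, 10 bp to the left of the summit on the plus strand, a word found around 35.5% of 681 peaks past the threshold and 13.9% of 136387 not past it. The Lk6 peak held ACAGTGG centred 3 bp to the left of its summit, found in 16.0% of peaks past and 2.80% of those not past, and GAGAG, found in 25.6% and 23.3%. Of its 3 GAGAG matches, 2 lay inside the peak and 1 ran past its right end. Within 100 bp the 2 leading summits thus shared no word, whereas within 250 bp both had GAGAG (1 match at cbt and 10 at Lk6), and the 7-mer ACAGTGG, found earlier in these data, was absent from the cbt window of letters. Within 250 bp the cbt summit also had 1 E-box match, a word found around 8.22% of peaks past and 6.81% of those not past.

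Over their whole length, the weaker cbt peaks held other words. CACGTG was present in the peaks 390 and 2286 bp upstream, and in 4.63% of full-width peaks past the threshold and 4.03% of those not past. An AP-1 word was present in the peak 975 bp upstream, 20 bp from its summit, and in 5.95% of peaks past and 5.03% not past. GAGAG was present in the peaks 390 and 975 bp upstream and in the one near CG4297, and in 39.5% past and 30.9% not past. The KLF word was present near CG4297 alone, and in 24.8% past and 35.1% not past. None of the 6 peaks held the ChoRE word, which was present in 0 of 605 full-width peaks past the threshold and 9 of 136386 not past. Of the bases up to 100 bp from the summit, G and C made up 39.8% at the leading cbt peak and 33.3% at the Lk6 peak, both inside the middle range of peaks past the threshold (quartiles 32.3 and 40.8%, median 35.8%), against a median of 46.8% in those not past. Both leading peaks were thus poorer in GC than most candidates that did not pass.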

How the data were processed

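The values come from the 8 peak lists the authors deposited for CkIIalpha-i1-eGFP ChIP-seq in 2 biological replicates of whole embryos: a ranked and a thresholded list for each replicate and 2 of each for the series. Chromatin was fragmented by sonication to 200 to 800 bp and coordinates are on dm6, per the labels. The deposited signal value of each peak is the peak caller's own, on a scale the sources used here do not state. The deposited score runs with the IDR, and the −log10 of the global IDR stands beside it in the deposited ranked lists. Neither the aligner nor the caller is given in the sources used here. Read depth is unknown from peak lists, so no interval based on depth is given. The labels call the replicates biological, without saying whether they came from separate collections.

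Peaks past a global IDR of 0.01 (−log10 of at least 2) were taken from each ranked list and counted as held in a thresholded list on an overlap of at least 1 bp. Ranks are by signal within a list. Gene models came from Ensembl release 115 (BDGP6.54) and sequences from the RefSeq Release 6 genome, whose coordinates are those of dm6. Words were searched within 100 bp of summits. No test was made, since 1 group was present and the genes were chosen on their signals. Counting and word-search functions were tested on simulated data. Genes named are cbt and Lk6, genes of their windows, the 10 next strongest missing main-arm peaks, up to 2 peaks above and below each leading peak in signal, and list members with a peak past the threshold. The members and lists were chosen with earlier results of these data known. Alternatives were other lists, IDR thresholds, windows and overlap rules. The analysis used matplotlib 3.10.9, pandas 2.3.3 and numpy 2.4.6 under Python 3.11.15.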

Additional observations from a re-analysis of the deposited data

How the results depend on the processing

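The count of peaks past the threshold at cbt, 5 in the conservative list, was also 5 with a 10 kb window, at an IDR of 0.05 and in the pooled ranked list. It was 1 at an IDR of 0.001, where the leading peak remained, 3 with a 2 kb window, and 3 to 5 when either replicate was left out, with 3 in replicate 1 alone. At Lk6 it was 1 under all 7 alternatives run. Missing peaks numbered 43 in the conservative list and also 43 under both stricter overlap rules, 68 in the pooled list, 28 on the main arms alone, and 28 to 68 when either replicate was left out, with 28 in replicate 1's lists and 68 in replicate 2's. Word matches around the 2 leading summits were counted as pairs of a word and a peak. They numbered 3 within 100 bp, also 3 around the pooled list's summits, 2 within 50 bp and 5 within 250 bp. Within 250 bp GAGAG came to be shared by both peaks, and the cbt summit gained an E-box word. No paired analysis was possible because there was 1 group.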
